A study of Mus musculus with 14 samples.

Results

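Regulatory T cells (Tregs) taken from mouse melanomas were compared with Tregs taken from lymphoid organs, using 6 tumor libraries and 8 lymphoid libraries, which together are all 14 libraries of the series. Each library was a low-input Smart-Seq2 preparation of Foxp3-YFP-positive Tregs from mice aged 8 weeks. The tumors were grown from Yumm1.7, a mouse melanoma cell line. KO tumor Tregs (3 libraries, replicates 1 to 3) came from mice labelled CD36floxed FoxP3-YFPCre+/-, in which Cre made under the control of the Foxp3 locus is meant to delete Cd36, the gene of a fatty acid and lipoprotein receptor. WT tumor Tregs (3 libraries, replicates 2 to 4), lymph node (LN) Tregs (4 libraries) and spleen Tregs (4 libraries) came from mice labelled FoxP3-YFPCre+/+. All 4 groups thus carried the Foxp3-YFP-Cre allele, given as +/- in the KO strain and as +/+ in the others. Lymphoid Tregs of the KO strain were not analysed here, so that in the 2 pairs of KO tumor with a lymphoid group the tissue and the genotype cannot be told apart. The labels do not say whether libraries of a group came from separate mice, and the p-values therefore measure only the spread between these libraries, which may be technical. How the cells were freed from each tissue, and whether the lymphoid organs came from mice with tumors, is not given in the sources used here.

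Tregs are the CD4 T cells that hold other immune cells in check, and their lineage depends on the transcription factor Foxp3. In lymphoid organs many of them circulate in a resting state, held by factors that also keep naive T cells quiet, whereas in tissues and tumors they are known for an activated, effector state with costimulatory receptors, chemokines and tissue-repair factors. Stimulated T cells switch on immediate early genes first, among them the AP-1 subunits, and soon after them the phosphatases and mRNA-decay factors that damp the same signals. Immediate early and heat shock genes are also known to be switched on while cells are being freed from solid tissue.

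The values are FPKM, fragments per kilobase of transcript, scaled to the library's total, as deposited. Of 22255 genes 10147 reached 1 FPKM in 3 or more libraries and were tested. The tumor value of a gene is the mean of the KO tumor and WT tumor group means of log2(FPKM + 1), the lymphoid value is the mean of the LN and spleen group means, and the difference is tumor minus lymphoid, given with its standard error (SE). A gene is said to have risen or fallen, or to have passed, where limma's adjusted p was under 0.05. Coordinates are those of GRCm38. FPKM are shares of a library, and fewer cells of a type cannot be told apart from less RNA per cell in such bulk samples.

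Read depth, worked out from the steps between low values, ran from 10.8 to 21.4 M reads per library, and 7469 to 8307 genes per library reached 1 FPKM. Depth was 13.62 to 17.18 M in KO tumor, 10.75 to 14.44 in WT tumor, 18.43 to 21.42 in LN and 11.53 to 13.87 in spleen. The genes at 1 FPKM numbered 8098 to 8247, 7469 to 7687, 8091 to 8307 and 7559 to 8145 in that order. LN libraries were thus the deepest, and the part of depth in the contrasts was not tested. Tregs were the labelled cells in every library, and Foxp3 (chrX:7573644-7595245) was found in all of them, at 42.4, 41.7 and 25.7 FPKM in KO tumor Tregs and 12, 3.54 and 12 in WT tumor Tregs. LN Tregs had 32.3, 23.6, 15.4 and 25.4 and spleen Tregs 21.1, 16.9, 27.8 and 8.67 FPKM. The difference of -0.20 ± 0.36 (SE, adjusted p = 0.832) did not pass, nor did KO against WT tumor (2.01, adjusted p = 0.153), although all KO tumor libraries lay above all WT tumor ones. Cd36 was at 0, 1.06 and 0 FPKM in KO tumor, 0 in all 3 WT tumor and all 4 LN libraries, and 0, 0.598, 4.47 and 2.17 FPKM in spleen, so that its deletion could not be read from these libraries. Transcripts of other cells were low or uneven. The summed level of 12 macrophage markers was 420.0 to 618 FPKM in KO tumor, 125 to 229 in WT tumor, 68.1 to 107 in LN and 405 to 952 in spleen. Of these Ctsd was at 113 to 204, 120 to 123, 64.1 to 71.2 and 79.1 to 382 FPKM in that order, most of the sum in WT tumor and LN. C1qb was at 36.1 to 93.0, 0.13 to 0.69, 0.17 to 24.5 and 42.4 to 134 FPKM. Tyrobp was at 91.8 to 177, 0.49 to 6.11, 0.0875 to 6.57 and 131 to 216 FPKM. Lyz2 overlapped between KO and WT tumor, at 0 to 6.21 and 0 to 19.9 FPKM. The summed level of 9 B cell markers was 19.4 to 59.2, 7.46 to 100, 49.6 to 68.3 and 75.8 to 326 FPKM in the same order of groups. Globin and other erythroid transcripts summed to 63.3 to 16400 FPKM in KO tumor and 225 to 11900 FPKM in WT tumor, against 79.0 to 1190 FPKM in LN and 2980 to 7080 FPKM in spleen. Of 7 melanoma markers Tyrp1, Dct, Mlana and Sox10 were at 0 in all 6 tumor libraries and in all 8 lymphoid ones. Pmel, Mitf and Tyr reached at most 1.66, 0.605 and 0.0308 FPKM in a tumor library. In a lymphoid library they reached at most 1.84, 3.73 and 0 FPKM. Among the markers of macrophages (10 tested), dendritic cells, and CD8 T or NK cells (4 tested) none passed between tumor and lymphoid Tregs. The CD8 T or NK cell markers summed to 16.8 to 37.1 FPKM in KO tumor and 22.3 to 66.2 FPKM in WT tumor, against 0.11 to 9.62 FPKM in LN and 7.82 to 66.8 FPKM in spleen. Of 7 tested B cell markers 2 fell, H2-DMb2 among them, and of the conventional helper T cell markers Ifng rose. Their part in the differences below was not tested.

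Tumor Tregs differed from lymphoid Tregs in 554 of 10147 tested genes (5.46%). Of these 332 (3.27%) were higher and 222 (2.19%) lower in tumor Tregs. The same fit gave 284 genes (2.80%) for KO tumor against spleen, 347 (3.42%) for KO tumor against LN, 221 (2.18%) for WT tumor against spleen and 349 (3.44%) for WT tumor against LN. Of the 284 genes 166 (1.64%) were higher and 118 (1.16%) lower in KO tumor than in spleen, and of the 347 genes 214 (2.11%) were higher and 133 (1.31%) lower than in LN. WT tumor was higher in 145 (1.43%) and lower in 76 (0.749%) of the 221, and higher in 221 (2.18%) and lower in 128 (1.26%) of the 349. This last split became 177 and 173 when the values were scaled to the protein-coding total. In 524 of the 554 genes all 4 pairs had the same sign. Passing in one direction in all 4 pairs as well was rarer: 79 genes (0.779%) did so, 67 (0.660%) of them higher and 12 (0.118%) lower in tumor Tregs. The 4 pairs share libraries, so this count has no test of its own. It was 49, 50 and 49 without KO tumor replicate 1, 2 and 3, and of these 48, 50 and 48 genes were among the 79. In all 79 genes the 6 tumor libraries lay wholly above or wholly below the 8 lymphoid libraries, which over all tested genes held for 252 (2.48%), 183 (1.80%) of them above and 69 (0.680%) below. The 79 were picked from the same values, so their lack of overlap is no separate evidence.

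**Figure D1:**
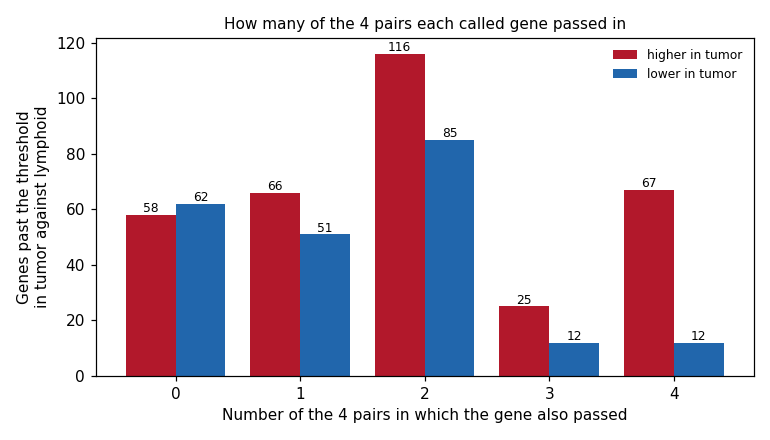
Genes that passed in tumor against lymphoid Tregs (vertical axis, number of genes), by the number of the 4 pairs of a tumor and a lymphoid group in which they also passed in the same direction (horizontal axis, 0 to 4). Red bars are genes higher in tumor and blue bars genes lower in tumor, and 67 higher but only 12 lower genes passed in all 4 pairs.

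Of the 116 higher and 85 lower genes that passed in exactly 2 pairs, 45 higher and 26 lower ones did so in both pairs with LN, and 15 and 7 in both pairs with spleen. A further 38 higher and 40 lower genes passed in both pairs with KO tumor, and 18 and 12 in both pairs with WT tumor. These numbers count tests passed, and whether the pairs differ is answered gene by gene by the 2 direct contrasts, KO against WT tumor and LN against spleen, given further on.

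The gene lists were chosen with earlier results of these data known, so their shares describe the members and test nothing. Immediate early factors were the list with the highest share of risen genes. Of 25 tested members 17 rose (68.0%, against 3.27% of all tested genes), none fell, and the median difference was 2.19, against -0.06 over all tested genes. Fos, Fosb, Jun, Nr4a2 and Klf6 also passed in all 4 pairs. Fos, an AP-1 subunit (chr12:85473890-85477273), was at 553, 542 and 355 FPKM in KO tumor Tregs and 810.1, 615 and 485 in WT tumor Tregs. In LN Tregs it was 0.846, 0.328, 5.07 and 11.9 and in spleen Tregs 2.16, 5.98, 2.89 and 7.11 FPKM. Every tumor library was far above every lymphoid one, and LN and spleen overlapped. The difference was 6.96 ± 0.45 (SE, adjusted p = 3.68e-07). Fosb, a second AP-1 subunit of the same family, was at 33.1, 20.7 and 22.3 FPKM in KO tumor Tregs and 39.3, 11.8 and 21.1 in WT tumor Tregs. The values were 0, 0, 0 and 0.331 FPKM in LN Tregs and 0.02, 0.0645, 0.862 and 0 in spleen Tregs, and the difference was 4.41 ± 0.39 (SE, adjusted p = 4.12e-06). The AP-1 partner Jun (chr4:95049034-95052222) had 40.1, 42.6 and 48.4 FPKM in KO tumor Tregs and 88.6, 111 and 44.1 in WT tumor Tregs. On the lymphoid side LN Tregs had 1.5, 0.434, 2.2 and 1.42 and spleen Tregs 8.79, 10.5, 3.34 and 11.1 FPKM. The 4 LN libraries all lay under the 4 spleen libraries, though LN against spleen did not pass (limma adjusted p = 0.0858), and the difference between tumor and lymphoid Tregs was 3.70 ± 0.36 (SE, adjusted p = 1.12e-05).

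Nr4a2, an orphan nuclear receptor induced by antigen receptor signals, was at 91.3, 96.6 and 86.4 FPKM in KO tumor Tregs and 63.7, 33 and 53.3 in WT tumor Tregs. Lymphoid levels were 0.451, 0.132, 0.944 and 0.0146 FPKM in LN and 4.07, 2.43, 15 and 5 in spleen. All 6 tumor libraries were above the highest lymphoid one, spleen 3, and the difference was 4.52 ± 0.38 (SE, adjusted p = 2.75e-06). Klf6, a zinc finger factor of the early response, had 145 to 199.5 FPKM (median 159.6) in tumor libraries and 7.96 to 19 FPKM (median 14.8) in lymphoid ones, and a difference of 3.51 ± 0.24 (SE, adjusted p = 3.68e-07). Fosl2 (AP-1), Crem (a cAMP-responsive factor), Nr4a3 and Atf3 rose by 3.58, 3.43, 2.73 and 2.62 on the log2 scale without passing in all 4 pairs. Egr1 rose by 1.82. Egr1 did not pass without WT tumor replicate 3 (adjusted p = 0.0612) or KO tumor replicate 3 (0.0741), nor Atf3 without KO tumor replicate 2 (0.0582) or 3 (0.0544), with a pseudocount of 5 (0.0646) or with no filter on low values (0.0614). Myc, a growth factor-induced gene on the same list, did not pass and had a difference of -0.16 ± 0.47 (adjusted p = 0.9). Leaving out any 1 library gave 13 to 17 risen members.

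**Figure D2:**
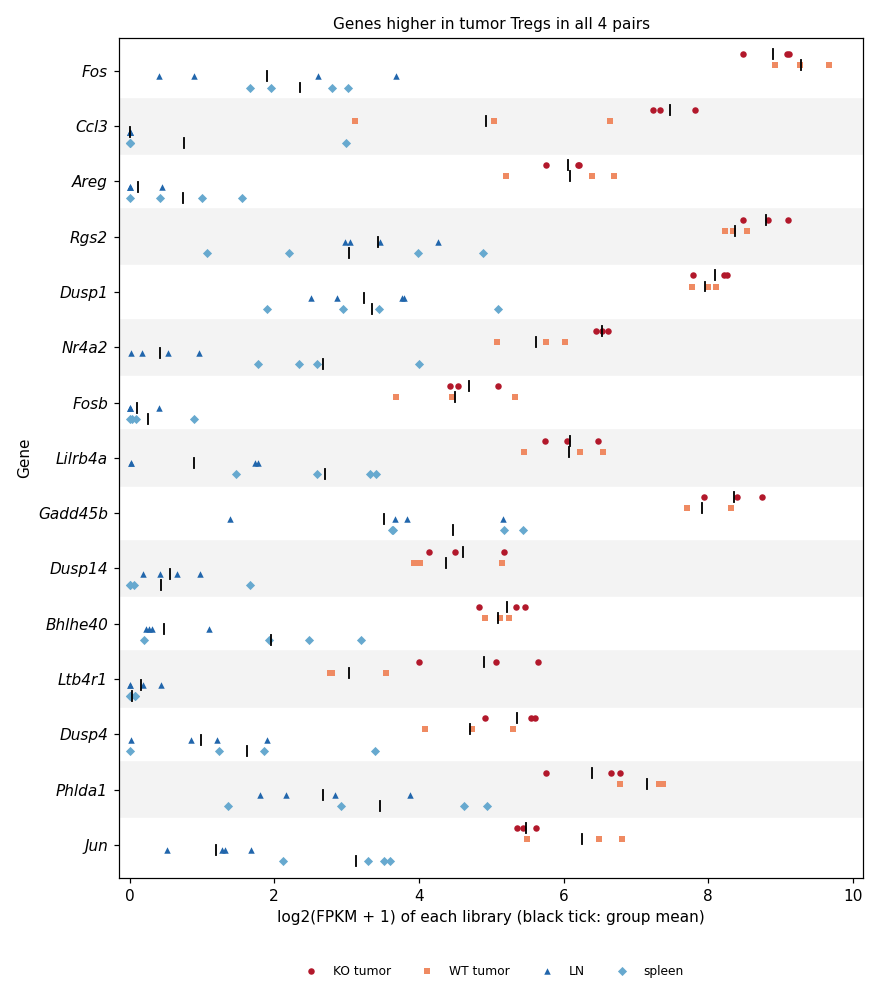
Level of the 15 genes with the largest rise among those higher in all 4 pairs, leaving out small RNA genes, predicted genes and pseudogenes and so mt-Tf with its difference of 3.87 (horizontal axis, log2(FPKM + 1)), 1 point per library and a black tick at each group mean, with KO tumor and WT tumor above LN and spleen for each gene. Only genes without overlap were chosen, so in each of the 15 all 6 tumor points lie to the right of all 8 lymphoid points. The Ccl3 values of WT tumor ran from 7.66 to 99.4 FPKM.

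In the list of feedback genes of kinase and G protein signals, not all of which are brakes, 10 of 27 tested members rose (37.0%) and 1 fell (3.7%). The 6 that were higher in all 4 pairs were Rgs2, Dusp1, Gadd45b, Dusp4, Dusp5 and Zfp36. Rgs2, a brake on G protein signalling (chr1:143999338-144004161), was at 455, 547 and 356 FPKM in KO tumor Tregs and 371, 300.1 and 324 in WT tumor Tregs. Set against these were 18.3, 7.27, 6.87 and 10 FPKM in LN and 14.8, 28.6, 3.63 and 1.1 in spleen Tregs. The highest lymphoid library, spleen 2, was far under the lowest tumor one, WT tumor 3, and the difference was 5.35 ± 0.48 (SE, adjusted p = 4.4e-06). Dusp1, the phosphatase that switches off stress-activated MAP kinases (chr17:26505590-26562128), was at 307, 221 and 298 FPKM in KO tumor Tregs and 253, 274 and 218 in WT tumor Tregs. LN Tregs had 4.72, 12.7, 6.31 and 12.9 and spleen Tregs 2.74, 9.89, 6.7 and 33 FPKM, and the difference was 4.73 ± 0.41 (SE, adjusted p = 3.17e-06). Dusp4, another MAP kinase phosphatase, had 16 to 47.7 FPKM (median 33.8) in tumor libraries and 0 to 9.47 FPKM (median 1.33) in lymphoid ones and rose by 3.72 ± 0.51 (SE, adjusted p = 0.00024). Gadd45b, a stress-induced activator of the p38 kinase pathway, had 209 to 428 FPKM (median 281) in tumor libraries and 1.63 to 42.6 FPKM (median 12.5) in lymphoid ones, a difference of 4.14 ± 0.48 (SE, adjusted p = 5.81e-05). Rgs10, the member that fell, is also a brake on G protein signals and had a difference of -1.39 ± 0.21 (adjusted p = 0.00054). Dusp14 and Phlda1, both known as genes of stimulated T cells, were outside the list and rose by 3.99 ± 0.42 (SE, adjusted p = 2.28e-05) and 3.71 ± 0.52 (SE, adjusted p = 0.000306).

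The promoters of these genes were read for 5 short motifs, because the genes moved together. RefSeq (GRCm38.p6) gave a window of 250 bases before the start for 50 of the 67 genes higher in all 4 pairs, for 8 of the 12 lower ones and for 27025 genes in all. The cAMP response element TGACGTCA was in 3 of the 50 (6%: Areg, Dusp1 and Ldha), against 1.77% of all genes. An AP-1 site, TGANTCA, was in 6 of the 50 (12%), against 7.82% of all. The heat shock core GAANNTTC was in 4 of the 50 (8%), against 7.73%, the hypoxia core ACGTG in 17 (34%), against 18.5%, and the serum response element in 3 (6%: Dusp5, Zfp36 and Actg1), against 1.62%. Of the 8 lower genes 1 held a motif, ACGTG in Pdzk1ip1. Motifs were read on both strands, and matches can overlap one another. A gene with more than 1 window was counted where any of its windows held the motif. A match is a description of the letters and no sign of binding. The 27025 genes include many that were not tested here, so these shares set unlike groups of genes side by side. The windows of 3 early-response genes are shown for the cAMP and serum response elements, and those of 2 glycolytic genes described further on for the hypoxia core. Each reads 5′ to 3′ on the strand of its gene, its last base is the one before the start, and capitals mark every motif match.
Areg, chr5:91139349-91139598, plus strand: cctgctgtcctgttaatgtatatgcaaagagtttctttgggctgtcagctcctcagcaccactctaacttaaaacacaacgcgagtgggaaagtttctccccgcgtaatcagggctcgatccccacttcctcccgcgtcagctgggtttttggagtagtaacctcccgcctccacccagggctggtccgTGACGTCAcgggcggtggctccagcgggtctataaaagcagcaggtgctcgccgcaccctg
Dusp1, chr17:26508473-26508722, minus strand: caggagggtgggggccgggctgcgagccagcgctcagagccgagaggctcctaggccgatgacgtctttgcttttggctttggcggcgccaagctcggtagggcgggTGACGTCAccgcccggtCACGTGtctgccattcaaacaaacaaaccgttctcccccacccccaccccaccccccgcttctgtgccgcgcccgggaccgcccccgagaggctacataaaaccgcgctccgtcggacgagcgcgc
Dusp5, chr19:53528895-53529144, plus strand: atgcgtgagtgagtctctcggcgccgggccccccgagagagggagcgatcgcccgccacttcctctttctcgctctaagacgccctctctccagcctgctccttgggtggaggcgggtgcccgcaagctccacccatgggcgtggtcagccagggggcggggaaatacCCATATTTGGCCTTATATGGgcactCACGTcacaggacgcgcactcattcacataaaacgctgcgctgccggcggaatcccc
Slc16a3, chr11:120948817-120949066, plus strand: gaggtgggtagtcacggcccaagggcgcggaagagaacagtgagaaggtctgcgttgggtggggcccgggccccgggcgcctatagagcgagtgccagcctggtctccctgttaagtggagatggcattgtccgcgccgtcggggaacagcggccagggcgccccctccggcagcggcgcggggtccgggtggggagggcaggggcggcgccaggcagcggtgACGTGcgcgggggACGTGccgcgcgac
Ldha, chr7:46845554-46845803, plus strand: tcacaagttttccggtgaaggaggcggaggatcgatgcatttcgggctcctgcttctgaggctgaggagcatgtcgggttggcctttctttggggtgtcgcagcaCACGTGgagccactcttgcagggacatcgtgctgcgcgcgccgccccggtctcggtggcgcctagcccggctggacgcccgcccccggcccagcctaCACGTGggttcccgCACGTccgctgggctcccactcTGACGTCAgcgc
Counted from the start, with -1 as the last base before it, the cAMP response element ran from -61 to -54 in Areg, from -143 to -136 in Dusp1 and from -12 to -5 in Ldha. Dusp5 held 2 serum response elements in a row, the first from -82 and the other from -72, and ACGTG from -57. Slc16a3 held ACGTG from -27 and from -14. Ldha held it from -34, and, from -145 and from -48, as the palindrome CACGTG, which matches on both strands, as did Dusp1 from -126. Another Ldha window, chr7:46846832-46847081, is not shown and held none of the motifs.

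Effector and tissue-repair genes of Tregs were the list with the next highest share. Of 36 tested members 21 rose (58.3%), none fell, and 8 were higher in all 4 pairs: Areg, Anxa2, Rora, Id2, Vim, S100a4, S100a6 and Lgals1. Areg encodes amphiregulin, a growth factor through which Tregs are known to act on damaged tissue (chr5:91139599-91148432). Its level was 53.3, 73.5 and 72.3 FPKM in KO tumor Tregs and 102, 35.8 and 83.1 in WT tumor Tregs. In LN Tregs it was 0, 0, 0 and 0.359 and in spleen Tregs 0.998, 0.335, 0 and 1.94 FPKM. It was at or near 0 in most lymphoid libraries and far higher in every tumor library, with a difference of 5.65 ± 0.38 (SE, adjusted p = 3.68e-07). Rora, a nuclear receptor of tissue-resident lymphocytes, had 43.1 to 68.7 FPKM (median 63.8) in tumor libraries and 7.36 to 18.7 FPKM (median 12.1) in lymphoid ones and rose by 2.29 ± 0.26 (SE, adjusted p = 4.79e-05). Id2, an inhibitor of E-protein transcription factors linked to effector differentiation, had 389 to 689 FPKM (median 482) in tumor libraries and 72.1 to 233 FPKM (median 91.3) in lymphoid ones and rose by 2.20 ± 0.20 (SE, adjusted p = 7.36e-06). The cytoskeletal and calcium-binding genes Vim (vimentin) and S100a4 rose by 1.96 ± 0.16 (SE, adjusted p = 2.75e-06) and 1.74 ± 0.17 (SE, adjusted p = 1.29e-05). Members with a rise but no pass in all 4 pairs included the inhibitory cytokine gene Il10 (3.34), the granzyme gene Gzmb (3.13) and the chemokine receptor gene Ccr8 (2.28, which did not pass in 9 of 24 alternative settings). Batf, Irf4 and Il1rl1, a pair of effector Treg factors and the IL-33 receptor, had differences of 1.41 ± 0.48 (adjusted p = 0.114), of 0.98 ± 0.59 (adjusted p = 0.42) and of 0.98 ± 0.57 (adjusted p = 0.399), and did not pass. Batf passed without LN replicate 2 (adjusted p = 0.0419).

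Of 26 tested costimulatory and inhibitory receptor genes 9 rose (34.6%) and 1 fell (3.85%). Lilrb4a, Tnfrsf9, Cd28 and Icos were higher in all 4 pairs. Lilrb4a, an inhibitory immunoglobulin-like receptor (chr10:51480612-51496613), was at 88.3, 65.4 and 52.7 FPKM in KO tumor Tregs and 42.9, 74.2 and 92.5 in WT tumor Tregs. The values were 0.0175, 2.41, 0.0173 and 2.32 FPKM in LN Tregs and 9.61, 5.03, 9.02 and 1.79 in spleen Tregs, and the difference was 4.29 ± 0.44 (SE, adjusted p = 1.64e-05). It has a near-identical neighbour, Lilr4b, between which short reads can be split wrongly. Tnfrsf9 (4-1BB), a receptor of recently stimulated Tregs, was at 293, 227 and 226 FPKM in KO tumor Tregs and 305, 312 and 311 in WT tumor Tregs. On the lymphoid side LN Tregs had 44.6, 46.6, 43.2 and 35.1 and spleen Tregs 91, 38.4, 118 and 90 FPKM. The highest lymphoid library, spleen 3, was under the lowest tumor one, KO tumor 3, and the difference was 2.25 ± 0.23 (SE, adjusted p = 1.41e-05). Icos, a CD28-family costimulator, was at 1057, 1192 and 943 FPKM in KO tumor Tregs and 706, 817 and 777 in WT tumor Tregs. Lymphoid levels were 416, 397, 470.5 and 493.3 FPKM in LN and 387, 268, 223 and 319 in spleen. The groups did not overlap, and the difference was 1.32 ± 0.13 (SE, adjusted p = 1.12e-05). Cd28 itself rose by 1.46 ± 0.20 (SE, adjusted p = 0.000257). The inhibitory receptors Ctla4 and Tigit and the ligand Cd274 (PD-L1) rose by 2.33 ± 0.40 (adjusted p = 0.00193), by 3.14 ± 0.59 (adjusted p = 0.00369) and by 2.87 ± 0.49 (adjusted p = 0.00182), each without overlap between tumor and lymphoid libraries but not in all 4 pairs. Btla, an inhibitory receptor, fell, with -1.79 ± 0.37 (adjusted p = 0.00786). Btla did not pass with tumor and lymphoid each fitted as a single group (adjusted p = 0.0913). The inhibitory receptor genes Pdcd1 (PD-1), Lag3 and Havcr2 (TIM-3) did not pass, with 0.70 ± 0.35 (adjusted p = 0.31), 1.10 ± 0.49 (adjusted p = 0.246) and 0.99 ± 0.72 (adjusted p = 0.53).

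Of 19 tested chemokine and chemokine receptor genes 8 rose (42.1%) and none fell, Ccl3 and Cxcr4 in all 4 pairs. Ccl3, a chemokine that draws monocytes and T cells (chr11:83647844-83649355), was at 161, 151 and 224 FPKM in KO tumor Tregs and 7.66, 99.4 and 31.8 in WT tumor Tregs. Set against these were 0 FPKM in LN and 0, 0, 0 and 6.94 in spleen Tregs. It was listed at 0 in 7 of 8 lymphoid libraries. KO tumor libraries lay above all WT tumor ones, but KO against WT tumor did not pass (2.53, limma adjusted p = 0.338), and tumor against lymphoid gave 5.83 ± 0.58 (SE, adjusted p = 1.37e-05). The summed macrophage markers were also higher in KO than in WT tumor libraries, and their part in the Ccl3 level was not tested. Cxcr4, the receptor for CXCL12, was at 10.5 to 28.2 FPKM (median 14.3) in tumor libraries and low in lymphoid ones, at 0.0515 to 2.82 FPKM (median 0.389). It rose by 3.23 ± 0.44 (SE, adjusted p = 0.000224). Ccl5, a chemokine of effector T cells, was at 2170.0, 2474 and 1985 FPKM in KO tumor Tregs and 2016, 2061 and 1765 in WT tumor Tregs. LN Tregs had 499.8, 103, 312 and 169.6 and spleen Tregs 1266, 1024, 809 and 1392 FPKM. Its tumor rise of 2.04 ± 0.26 (SE, adjusted p = 0.000136) passed in both pairs with LN and in neither with spleen, and LN minus spleen was -2.26 on the log2 scale (limma adjusted p = 0.00684). Ltb4r1, a receptor for the lipid chemoattractant leukotriene B4 (chr14:55765962-55768494), was at 32.6, 49.4 and 15 FPKM in KO tumor Tregs and 5.82, 5.98 and 10.7 in WT tumor Tregs. In LN Tregs it was 0.135, 0.354, 0 and 0 and in spleen Tregs 0, 0.0583, 0.052 and 0 FPKM, and the difference was 3.88 ± 0.38 (SE, adjusted p = 1.15e-05).

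Of 24 tested cytokine and cytokine receptor genes 3 rose (12.5%) and 1 fell (4.17%). Ifngr1, the ligand-binding chain of the interferon-gamma receptor (chr10:19591949-19610229), was at 677, 555 and 570.4 FPKM in KO tumor Tregs and 714, 907 and 943 in WT tumor Tregs. The values were 101, 135, 113 and 115 FPKM in LN Tregs and 236, 130.5, 87.3 and 145 in spleen Tregs. The groups did not overlap, and the difference was 2.47 ± 0.19 (SE, adjusted p = 9.99e-07). Ifng, a cytokine of helper and killer T cells, was at 236, 108 and 191 FPKM in KO tumor Tregs and 166, 42.5 and 156 in WT tumor Tregs. On the lymphoid side LN Tregs had 13.9, 7.16, 1 and 23.8 and spleen Tregs 21.8, 0, 4.92 and 0 FPKM, and the difference was 4.61 ± 0.72 (SE, adjusted p = 0.000912). WT tumor against LN did not pass (adjusted p = 0.0708). Ifng is also one of the conventional helper T cell markers. Their summed level was 131 to 264 FPKM in KO tumor, 126 to 195 in WT tumor, 12 to 50.9 in LN and 8.35 to 40.7 in spleen. This sum includes Ifng, its largest part in every tumor library except WT tumor 3, and is thus no separate measure of such cells. Of the 3 tested markers only Ifng rose. Cd40lg was at 9.5 to 52.4 FPKM in KO tumor and 14.6 to 62.3 in WT tumor. It was at 7.14 to 18.4 FPKM in LN and 1.95 to 17.9 in spleen, and did not pass (1.32, limma adjusted p = 0.17). The part of conventional helper T cells in the Ifng level was not tested. Il6st, the signalling chain shared by IL-6 family receptors, fell, at 1.93 to 9.27 FPKM (median 5.73) in tumor libraries and 11.7 to 18.7 FPKM (median 17.3) in lymphoid ones, with -1.48 ± 0.35 (SE, adjusted p = 0.0197), but did not pass without KO tumor replicate 2 (adjusted p = 0.0596).

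Of 19 tested NF-kB subunits and inhibitors 7 rose (36.8%) and none fell, and the 2 that were higher in all 4 pairs were Tnfaip3 (A20), which ends NF-kB signals, and the atypical inhibitor Nfkbiz. Tnfaip3 had 10.7 to 43 FPKM (median 17.6) in tumor libraries and 0.0408 to 7.09 FPKM (median 0.383) in lymphoid ones, a difference of 3.56 ± 0.51 (SE, adjusted p = 0.000375). Nfkbiz had 61.2 to 132 FPKM (median 96.5) in tumor libraries and 6.54 to 32.5 FPKM (median 18.9) in lymphoid ones, a difference of 2.47 ± 0.29 (SE, adjusted p = 7.1e-05). The classical inhibitor Nfkbia rose by 1.61 ± 0.27 (SE, adjusted p = 0.00145), and the subunit Rel by 1.45. The T cell receptor list holds the receptor chains and proximal kinases. Of 26 tested members only the early activation antigen Cd69 rose (3.85%, against 3.27% of all tested genes). Only the kinase gene Prkcq fell (3.85%, against 2.19%), and it did not pass in 6 of 24 alternative settings. At an unadjusted limma p under 0.05 the list held 12 genes (46.2%), against 17.9% of all tested genes. Cd69 was at 68.8 to 154 FPKM (median 89.9) in tumor libraries and 1.93 to 21.8 FPKM (median 17.1) in lymphoid ones, with 2.88 ± 0.42 (SE, adjusted p = 0.000502).

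Heat shock chaperones included 6 risen genes of 18 tested (33.3%) and none that fell. Hsp90aa1, the inducible cytosolic HSP90 (chr12:110690605-110702728), was at 891, 827 and 723 FPKM in KO tumor Tregs and 1399, 1811 and 1196 in WT tumor Tregs. Lymphoid levels were 152, 158, 144 and 188 FPKM in LN and 379.9, 332, 348 and 399 in spleen. It passed in all 4 pairs, with 2.16 ± 0.12 (SE, adjusted p = 8.2e-08). LN minus spleen was -1.19 and passed (limma adjusted p = 0.00524), and KO minus WT tumor was -0.84 (adjusted p = 0.0517), which did not pass. Dnajb1, an HSP40 partner of HSP70, had 76 to 259.5 FPKM (median 151) in tumor libraries and 15.6 to 74.9 FPKM (median 39.9) in lymphoid ones and rose by 1.87 ± 0.32 (SE, adjusted p = 0.00188). Its 4 pair differences were 1.26 and 1.36 for KO tumor against LN and spleen, which did not pass, and 2.38 and 2.47 for WT tumor against LN and spleen, which did. KO against WT tumor gave -1.11 for Dnajb1 and did not pass (adjusted p = 0.483). In the unfolded protein and integrated stress response list 2 of 18 tested members rose (11.1%): Atf4, its central transcription factor, by 1.78 ± 0.30 (SE, adjusted p = 0.00153), and the phosphatase subunit Ppp1r15a by 2.82 ± 0.55 (SE, adjusted p = 0.0052). The endoplasmic reticulum chaperone gene Hspa5 did not pass, with 0.38 ± 0.27 (adjusted p = 0.52).

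**Figure D3:**
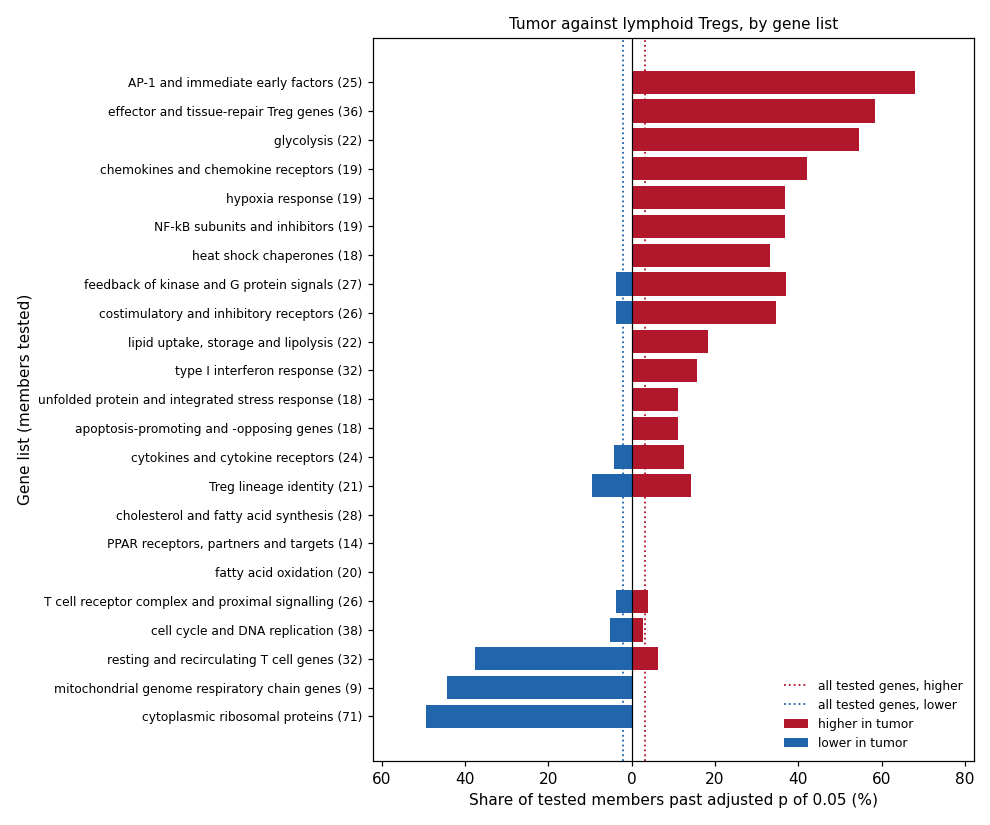
Share of the tested members of each of 23 gene lists that passed in tumor against lymphoid Tregs (horizontal axis, percent), with risen members in red to the right and fallen ones in blue to the left. Dotted lines mark the shares over all tested genes, 3.27% higher and 2.19% lower, and the longest bars are those of the immediate early factors (68.0% higher) and the ribosomal proteins (49.3% lower). The lists were chosen with earlier results of these data known.

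Of the metabolic lists glycolysis had the highest share of risen genes. Of 22 tested members 12 rose (54.5%), none fell, the median difference was 1.23, and Tpi1, Slc16a3, Aldoa, Pkm and Ldha were higher in all 4 pairs. Tpi1, triose-phosphate isomerase (chr6:124810586-124814296), was at 682, 421 and 438 FPKM in KO tumor Tregs and 313, 226 and 386 in WT tumor Tregs. Set against these were 27.8, 25.8, 44.8 and 46.4 FPKM in LN and 98.3, 39.8, 10.4 and 10.3 in spleen Tregs, and the difference was 3.65 ± 0.42 (SE, adjusted p = 5.1e-05). Aldoa, aldolase A, had 302 to 453 FPKM (median 389) in tumor libraries and 35.9 to 125 FPKM (median 86.5) in lymphoid ones and rose by 2.15 ± 0.22 (SE, adjusted p = 1.75e-05). The M-type pyruvate kinase gene Pkm had 499.8 to 674 FPKM (median 609) in tumor libraries and 162 to 341 FPKM (median 199) in lymphoid ones and rose by 1.48 ± 0.13 (SE, adjusted p = 5.68e-06). Ldha, which turns pyruvate into lactate, was at 974, 814 and 586 FPKM in KO tumor Tregs and 698, 1034 and 788 in WT tumor Tregs. LN Tregs had 327, 412, 429.6 and 385 and spleen Tregs 390.3, 405, 247 and 392 FPKM. Every tumor library was above every lymphoid one, and the difference was 1.12 ± 0.15 (SE, adjusted p = 0.000281). Slc16a3, the exporter of lactate (MCT4), was at 10.8, 11.5 and 14.4 FPKM in KO tumor Tregs and 12.1, 7.44 and 8.25 in WT tumor Tregs. In LN Tregs it was 0.19, 0.189, 2.23 and 0.0122 and in spleen Tregs 0.273, 0.238, 1.16 and 0 FPKM. On the lymphoid side it was highest in LN 3 and spleen 3, and the difference was 3.03 ± 0.40 (SE, adjusted p = 0.000183). The glucose transporter gene Slc2a1 rose (adjusted p = 0.00819), and Hk2, the inducible hexokinase, rose by 1.61 but did not pass in 11 of 24 alternative settings. Reads of Tpi1, Aldoa, Ldha and above all Gapdh (1.60, passed) can be shared with many processed pseudogenes.

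Of the hypoxia response list 7 of 19 tested members rose (36.8%) and none fell, 3 of them (Slc2a1, Pgk1 and Ldha) being glycolysis genes as well. Hif1a, the oxygen-regulated transcription factor (chr12:73901375-73947530), was at 165, 117 and 156 FPKM in KO tumor Tregs and 152, 138 and 159 in WT tumor Tregs. The values were 48.8, 24, 36.7 and 41.6 FPKM in LN Tregs and 37.3, 69.7, 30.3 and 55.1 in spleen Tregs. The groups did not overlap, and the difference was 1.82 ± 0.24 (SE, adjusted p = 0.00017). HIF-1 alpha is known to be controlled mostly as a protein, which was not measured. Odc1, the first enzyme of polyamine synthesis, was on no list and rose, at 222, 324 and 255 FPKM in KO tumor Tregs and 174, 109.9 and 113 in WT tumor Tregs. On the lymphoid side LN Tregs had 7.65, 8.55, 9.74 and 13 and spleen Tregs 24.6, 12.5, 27.3 and 19.1 FPKM, and the difference was 3.64 ± 0.25 (SE, adjusted p = 3.68e-07). Both tumor groups were above both lymphoid ones. KO tumor libraries were above all WT tumor libraries, but the contrast of the 2 genotypes did not pass (adjusted p = 0.386).

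Cd36, the gene targeted in the KO strain, belongs to the lipid genes. Of 22 tested genes of lipid uptake, storage and lipolysis 4 rose (18.2%), none fell, and none passed in all 4 pairs. Dgat1, an enzyme that completes triglycerides, was at 218, 184 and 222 FPKM in KO tumor Tregs and 155, 319.5 and 131 in WT tumor Tregs. Lymphoid levels were 19.1, 1.96, 7.26 and 18.8 FPKM in LN and 54.2, 25.5, 42.4 and 56.5 in spleen, and the difference was 3.25 ± 0.40 (SE, adjusted p = 9.77e-05). WT tumor against spleen did not pass (2.10, adjusted p = 0.069). The hormone-sensitive lipase gene Lipe was at 34.1, 27.3 and 25.4 FPKM in KO tumor Tregs and 94.3, 84.7 and 43.5 in WT tumor Tregs. Set against these were 7.32, 7.04, 16.8 and 8.01 FPKM in LN and 17.5, 23.7, 14.5 and 23.9 in spleen Tregs. Its rise of 1.67 ± 0.30 (SE, adjusted p = 0.00297) passed in both pairs with WT tumor and in neither with KO tumor, while the contrast of KO against WT tumor itself gave -1.27 and did not pass (adjusted p = 0.363). Hilpda, a hypoxia-induced lipid droplet protein, rose by 3.55 ± 0.66 (SE, adjusted p = 0.00348). Dgat2 rose by 2.43 ± 0.63 (SE, adjusted p = 0.0316), and did not pass in 11 of 24 alternative settings. Among 20 tested genes of fatty acid oxidation, 14 of the PPAR list and 28 of cholesterol and fatty acid synthesis none passed by limma, with median differences of -0.53, 0.15 and 0.02. The nearest to passing was Mvd, of cholesterol synthesis, with -1.65 ± 0.47 (adjusted p = 0.0513), which passed in 4 of 24 alternative settings: without WT tumor replicate 3 (adjusted p = 0.025) or KO tumor replicate 2 (0.0417), with at least 1 FPKM required in 6 libraries (0.0456) and scaled to the protein-coding total (0.0445). Cpt1a, the gate of mitochondrial fatty acid oxidation, had -1.39 ± 0.51 (adjusted p = 0.15). At an unadjusted p under 0.05 these 3 lists held 6, 2 and 3 genes (30.0%, 14.3% and 10.7% of those tested), against 1816 (17.9%) of all 10147 tested genes.

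Resting and recirculating T cell genes held more fallen than risen members. Of 32 tested members 12 fell (37.5%, against 2.19% of all tested genes), 2 rose (6.25%), the median difference was -1.01, and Id3, Treml2, Nsg2 and Bcl2 were lower in all 4 pairs. Id3, which blocks E proteins and is high in resting Tregs (chr4:136143497-136145755), was at 13.8, 3.12 and 3.78 FPKM in KO tumor Tregs and 0, 0.466 and 13.8 in WT tumor Tregs. LN Tregs had 205, 120.4, 85.7 and 175 and spleen Tregs 96.9, 49.2, 78.1 and 58.4 FPKM. The tumor libraries varied widely but none reached the lowest lymphoid one, spleen 2, and the difference was -4.52 ± 0.53 (SE, adjusted p = 6.14e-05). Treml2, a receptor of the TREM family, was at 2.56, 0.114 and 0.22 FPKM in KO tumor Tregs and 0.0207, 0.033 and 0.0154 in WT tumor Tregs. In LN Tregs it was 13.6, 23, 26 and 23.8 and in spleen Tregs 19.7, 19.7, 19.6 and 8.07 FPKM, and the difference was -3.87 ± 0.40 (SE, adjusted p = 1.91e-05). Nsg2, a vesicle protein gene, had 1.02 to 7.55 FPKM (median 3.87) in tumor libraries and 16.7 to 58.6 FPKM (median 33.2) in lymphoid ones and fell, with -2.74 ± 0.39 (SE, adjusted p = 0.000325). Bcl2, the survival factor that opposes the mitochondrial route of apoptosis (chr1:106538178-106714274), was at 9.08, 14.5 and 7.32 FPKM in KO tumor Tregs and 6.28, 13.6 and 6.08 in WT tumor Tregs. The values were 48.4, 59.6, 50.1 and 49.1 FPKM in LN Tregs and 27.8, 40.3, 51.6 and 74.6 in spleen Tregs. The highest tumor library was under the lowest lymphoid one, and the difference was -2.31 ± 0.31 (SE, adjusted p = 0.000188). The resting-state factors Tcf7 and Foxp1 fell, with -1.03 ± 0.21 (adjusted p = 0.00634) and -1.38 ± 0.28 (adjusted p = 0.00716), but not in all 4 pairs. Tcf7 did not pass with tumor and lymphoid each fitted as a single group (adjusted p = 0.0567). Gpr183, a receptor for oxysterols that guides lymphocyte migration, and Klf2, a factor of circulating T cells, rose. Klf2 averaged 438 ± 94.1 FPKM in KO tumor and 1080 ± 123 FPKM in WT tumor Tregs (SD, n = 3 each), against 336 ± 69.1 FPKM in LN and 363 ± 147 FPKM in spleen Tregs (SD, n = 4 each). Its difference was 1.01 ± 0.18 (adjusted p = 0.00242), it passed in both pairs with WT tumor and in neither with KO tumor, and KO minus WT tumor was -1.31 (limma adjusted p = 0.0331). Ccr7, Lef1 and S1pr1, which hold T cells in the circuit of lymphoid organs or in a resting state, did not pass, with -0.50 ± 0.35 (adjusted p = 0.511), -1.43 ± 0.45 (adjusted p = 0.0861) and -0.19 ± 0.35 (adjusted p = 0.839), though Lef1 passed without WT tumor replicate 2 (adjusted p = 0.0301).

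**Figure D4:**
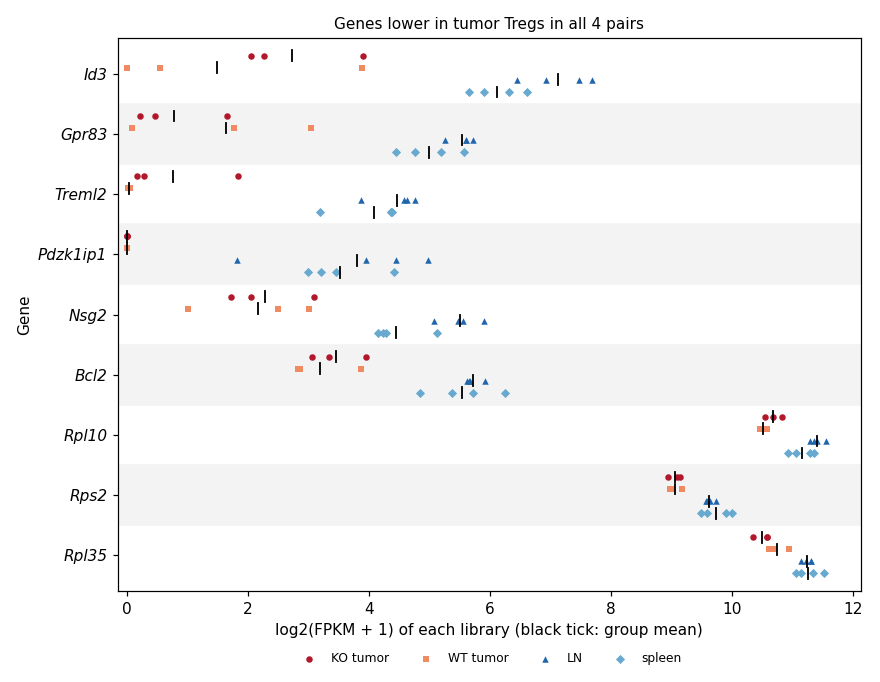
Level of 9 genes lower in all 4 pairs (horizontal axis, log2(FPKM + 1)), 1 point per library and a black tick at each group mean, with KO tumor and WT tumor above LN and spleen for each gene. Only genes without overlap were chosen, so all 6 tumor points of each gene lie to the left of its 8 lymphoid points. The tumor points of Pdzk1ip1 are all at 0.

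The genes that define the Treg lineage did not move one way. Of 21 tested members 3 rose (14.3%, against 3.27% of all tested genes) and 2 fell (9.52%, against 2.19%). The median difference was -0.01. Gpr83, a G protein-coupled receptor of the Treg signature (chr9:14860210-14870789), was at 0.382, 2.16 and 0.162 FPKM in KO tumor Tregs and 2.39, 7.24 and 0.058 in WT tumor Tregs. On the lymphoid side LN Tregs had 47.4, 47.4, 37.3 and 51.6 and spleen Tregs 26.2, 46.5, 35.4 and 20.7 FPKM. It was the member that was lower in all 4 pairs, with -4.06 ± 0.44 (SE, adjusted p = 3.1e-05). Izumo1r, folate receptor 4, had 67.3 to 269 FPKM (median 122) in tumor libraries and 220.2 to 399 FPKM (median 322) in lymphoid ones and fell, with -1.33 ± 0.23 (SE, adjusted p = 0.00232). Tnfrsf18 (GITR), Entpd1 (CD39) and Capg rose by 1.40, 2.07 and 0.69, Entpd1 not without WT tumor replicate 2 (adjusted p = 0.0504) or KO tumor replicate 2 (0.0558). The IL-2 receptor genes Il2ra and Il2rb and the Treg factor Ikzf2 (Helios) did not pass, with 0.22 ± 0.33 (adjusted p = 0.796), 0.48 ± 0.17 (adjusted p = 0.139) and 0.20 ± 0.17 (adjusted p = 0.607). Pdzk1ip1, a small membrane protein gene on no list, was listed at 0 in all 6 tumor libraries, against 30.6, 2.53, 20.8 and 14.4 FPKM in LN Tregs and 20.3, 8.24, 9.9 and 6.99 FPKM in spleen Tregs. At the depth of the tumor libraries a low level in them would not have been detected.

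Cytoplasmic ribosomal protein genes, which build the translation machinery, fell by small amounts or did not pass. Of 71 tested members 35 fell (49.3%), none rose, the median difference was -0.39, and 4 were lower in all 4 pairs, Rpl10, Rps2 and Rpl35 among them. Rpl10, of the large subunit (chrX:74270812-74273135), was at 1635, 1808 and 1494 FPKM in KO tumor Tregs and 1529, 1401 and 1465 in WT tumor Tregs. Lymphoid levels were 2627, 2718, 2511 and 2989 FPKM in LN and 2499, 2600.3, 2123 and 1951 in spleen. The highest tumor library, KO tumor 2, was under the lowest lymphoid one, spleen 4, and the difference was -0.68 ± 0.08 (SE, adjusted p = 7.94e-05). The number of fallen members depended on the model and the scale. It was 22 when tumor and lymphoid were each fitted as a single group, which left the median difference at -0.39. With values scaled to the protein-coding total 43 fell, and none rose in either setting. These genes have many processed copies in the genome that can take their reads, and 14 of the 31 processed pseudogenes that fell are named after ribosomal protein genes. Of 13 respiratory chain genes of the mitochondrial genome 9 were tested. Of these mt-Nd2, mt-Nd3, mt-Nd4 and mt-Nd6 fell (44.4%, against 2.19% of all tested genes) and none rose. The difference of mt-Nd6 was -0.96 ± 0.12 (SE, adjusted p = 8.43e-05), and mt-Nd4 did not pass in 10 of 24 alternative settings. None of the 9 passed in all 4 pairs or lay without overlap. Against LN 2 were lower in WT tumor and 3 in KO tumor. Against spleen 1 was lower and 1 higher in WT tumor, and none passed in KO tumor. The 2 tested mitochondrial rRNA genes rose.

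**Figure D5:**
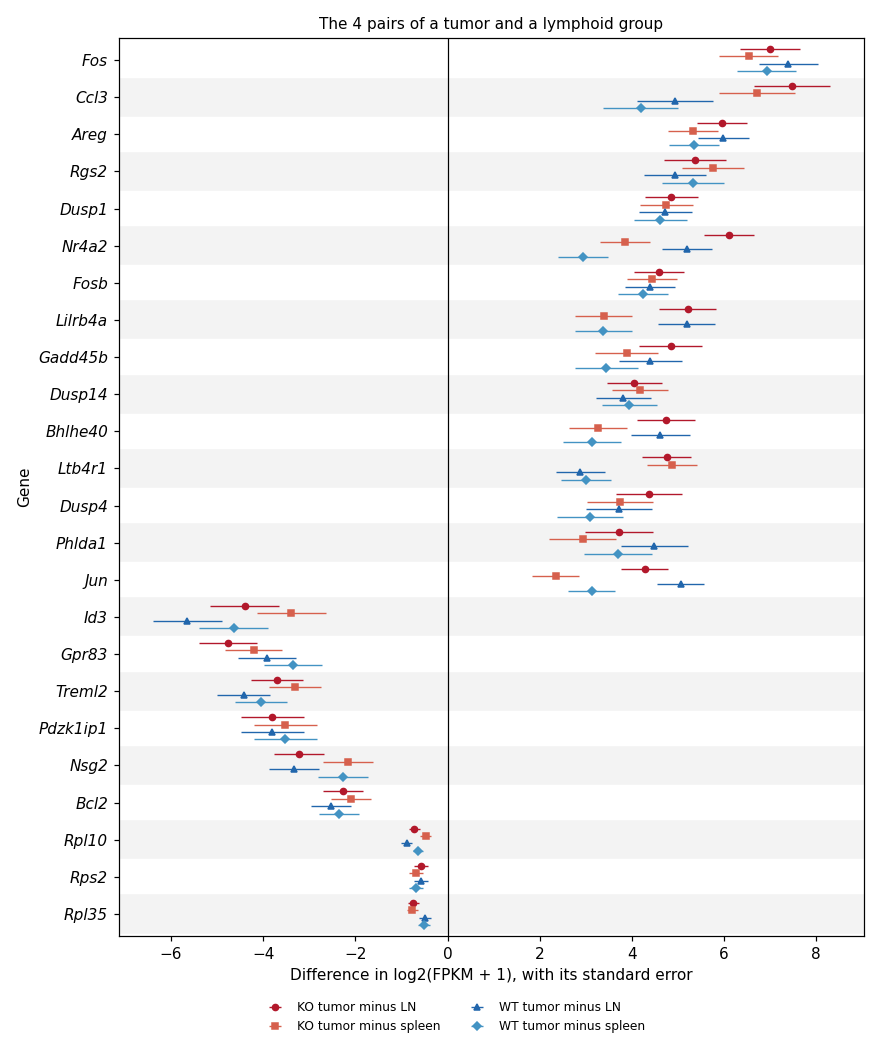
Difference in log2(FPKM + 1) in each of the 4 pairs of a tumor and a lymphoid group (horizontal axis, with its standard error) for the 15 higher and 9 lower genes of the plots by library. The genes were chosen for passing in 1 direction in all 4 pairs, so the 4 points of a gene lie on the same side of 0 by choice. They lie between 6.53 and 7.39 for Fos and between -0.89 and -0.47 for Rpl10.

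Type I interferon response genes rose in 5 of 32 tested members (15.6%), Rsad2 by 2.49 ± 0.46 (SE, adjusted p = 0.00347) and Isg20 by 1.66 ± 0.34 (SE, adjusted p = 0.00693), and none fell or passed in all 4 pairs. The number risen was 8 without spleen replicate 3 and 3 with no filter on low values. In the cell cycle list Cdkn1a (p21), which halts the cycle, was the 1 gene of 38 tested that rose (2.63%, against 3.27% of all tested genes). It was at 4.74 to 19.8 FPKM (median 11.5) in tumor libraries and 0 to 0.804 FPKM (median 0.124) in lymphoid ones. Its difference was 3.27 ± 0.41 (SE, adjusted p = 0.00011), and it passed in all 4 pairs. Ccna2 and Cdk4 fell (5.26% of the list, against 2.19% of all tested genes), with -1.72 ± 0.46 (adjusted p = 0.0358) and -1.48 ± 0.40 (adjusted p = 0.0404). They did not pass in 13 and 14 of 24 alternative settings. In the list of apoptosis genes Pmaip1 (NOXA) and Fasl, both promoters of cell death, rose by 2.75 ± 0.42 (SE, adjusted p = 0.000801) and 2.93 ± 0.52 (SE, adjusted p = 0.00257). They were 11.1% of the 18 tested members, and 16 did not pass. Bcl2, which opposes apoptosis and fell, is not counted here but in the list of resting T cell genes.

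KO and WT tumor Tregs were set against the same lymphoid libraries, none of them of the KO strain. The measured tumor against lymphoid difference thus differs between the 2 tumor groups where KO and WT tumor Tregs differ. Without KO lymphoid Tregs, a gene that differs between the strains in every tissue cannot be told apart from one that differs in tumors only. KO against WT tumor passed in 60 of all tested genes (0.591%) and in 26 of the 554, Klf2 among them. S100a1, a calcium-binding protein gene, was at 19.7, 66.4 and 25.8 FPKM in KO tumor Tregs and 0, 0 and 0.9 in WT tumor Tregs. Set against these were 0 FPKM in LN and 1.75, 0, 4.18 and 0 in spleen Tregs. The rise over lymphoid Tregs of 2.21 ± 0.47 (SE, adjusted p = 0.00919) thus came with levels near 0 in WT tumor, and KO against WT tumor gave 4.75 (limma adjusted p = 0.00462). The rise over lymphoid Tregs did not pass with tumor and lymphoid each fitted as a single group (adjusted p = 0.199). Tmem106a, a membrane protein gene, was at 9, 21 and 10.7 FPKM in KO tumor Tregs and 0.0384, 0.0306 and 0.0571 in WT tumor Tregs, against 0, 0.061, 0.0383 and 0 in LN Tregs and 0, 0, 1.28 and 1.4 in spleen Tregs, and KO against WT tumor gave 3.72 (adjusted p = 0.00396). Its rise over lymphoid Tregs did not pass with tumor and lymphoid each fitted as a single group (adjusted p = 0.237) or with a pseudocount of 0.1 (0.0772). Of the 35 ribosomal protein genes that fell, Rps21 passed between the genotypes, at 3754, 3477 and 3339 FPKM in KO tumor Tregs and 6605, 8096 and 5705 in WT tumor Tregs. LN Tregs had 4702, 4473, 4940.4 and 4603 and spleen Tregs 6854, 7786, 6807 and 8803 FPKM. KO minus WT tumor was -0.94 (adjusted p = 0.00172), and WT tumor was above LN. The tumor fall of Rps21, -0.28 ± 0.08 (SE, adjusted p = 0.0466), did not pass in 16 of 24 alternative settings. The summed macrophage markers, 420.0 to 618 FPKM in KO tumor and 125 to 229 FPKM in WT tumor, moved with the genotype too. Much of the WT tumor sum was Ctsd, while C1qb was at 36.1 to 93.0 FPKM in KO tumor and 0.13 to 0.69 in WT tumor. The part of the macrophage markers in these 3 genes was not tested. Of the 79 genes that passed in all 4 pairs 1 also passed between the genotypes, the mitochondrial tRNA gene mt-Tf.

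The difference depends on the organ where LN and spleen Tregs differ. LN against spleen passed in 58 of all tested genes (0.572%), in 20 of the 554 and in 1 of the 79, Hsp90aa1. Cd52, a glycoprotein gene of lymphocytes, was at 5303, 5046 and 5173 FPKM in KO tumor Tregs and 4238, 3909.8 and 4948 in WT tumor Tregs. In LN Tregs it was 3996, 4716, 3825 and 4369 and in spleen Tregs 3041, 2435, 2564 and 3156 FPKM. Its tumor rise of 0.47 ± 0.08 (SE, adjusted p = 0.00148) lay against spleen only: both pairs with spleen passed and neither with LN, and LN against spleen gave 0.60 (limma adjusted p = 0.0128). With tumor and lymphoid each fitted as a single group the tumor rise did not pass (adjusted p = 0.0715). Wnt10a, a Wnt ligand gene, was at 0 in all tumor libraries, at 7.85, 32.7, 7.02 and 2.85 FPKM in LN and at 0.123, 0.0329, 0.0294 and 0 FPKM in spleen. Its tumor fall did not pass without any single one of the 6 tumor libraries (adjusted p from 0.0513 to 0.0601) or with a pseudocount of 5 (0.119). With tumor and lymphoid each fitted as a single group the fall did not pass either (0.229). H2-DMb2, an antigen-presentation gene and one of the B cell markers, was at 3.41, 1.54 and 2.27 FPKM in KO tumor Tregs and 0.0627, 0 and 0.0933 in WT tumor Tregs. The values were 1.23, 6.11, 0.0625 and 0.11 FPKM in LN Tregs and 24.5, 53.8, 56.1 and 12.1 in spleen Tregs. Both pairs with spleen passed and neither with LN, the summed B cell markers were also highest in spleen, and their part was not tested. The tumor fall of -2.13 ± 0.51 (SE, adjusted p = 0.0207) did not pass without KO tumor replicate 2 (adjusted p = 0.0568). It did not pass with tumor and lymphoid each fitted as a single group either (0.23).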

How the data were processed

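Each library was a low-input Smart-Seq2 RNA-seq library of mouse Foxp3-YFP-positive Tregs. The authors deposited 1 table of FPKM values per library, and the tools in the submitters' processing notes are TopHat2 2.1.1, Cufflinks 2.2.1, Bowtie2 2.2.9, Cuffdiff, DESeq2 and Trimmomatic, on mm10/GRCm38, with no roles given. Counts were not used here. Low FPKM values were whole multiples of 1 read for 92.8 to 96.6% of the values tried (within 0.1 of a whole read), which gave the depths. They are estimates, and values below a few reads are uncertain.

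Genes with at least 1 FPKM in at least 3 of 14 libraries were kept (10147 of 22255). log2(FPKM + 1) was fitted with limma 3.58.1 (R 4.3.3; trend and robust options) in 1 model of 4 group means with 7 contrasts, tested two-sided, with Benjamini-Hochberg adjustment over all 10147 genes and a threshold of 0.05. Differences on this scale understate the change of low genes. The script was tested on simulated data. Alternatives were other pseudocounts, filters and scalings, a fit of tumor and lymphoid each as a single group, array weights, a block on the replicate number and leaving out each library. The fit of single groups left every difference the same. It put the differences between KO and WT tumor and between LN and spleen into the spread. The largest correlation between 2 libraries was 0.916, and no library was a copy of another.

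The genes given in full were Foxp3 and Cd36, the 15 highest and the 10 lowest of those called in all 4 pairs, without overlap and with at least 10 FPKM on the higher side (predicted genes, receptor segments, small RNA genes and pseudogenes left out), 4 members of every list, those of smallest p, and up to 4 genes each way from the genotype and organ contrasts. Other genes were chosen after their values were seen. A few genes that met these rules are not reported here. The members and lists were chosen with earlier results of these data known. Lists overlap. Symbols matched the GENCODE M21 annotation for 22201 genes, whose GRCm38 coordinates are printed, and 54 did not match. Promoters came from RefSeq GRCm38.p6. Reads of near-identical copies, and of genes that overlap on opposite strands, cannot be told apart. Versions were Python 3.11.15, numpy 2.4.6, pandas 2.3.3, scipy 1.17.1 and matplotlib 3.10.9.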

Additional observations from a re-analysis of the deposited data

Results flagged for a closer look

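Of 244 sets of 4 LN or 4 spleen values of the genes named, 26 held a library far from the other 3 by Dixon's criterion on the log2 scale. About 1 in 20 sets is marked by chance, and many of those marked hold 3 values at or near 0. Among genes higher in tumor Tregs, 1 lymphoid library stood above the other 3 of its group in these cases. In LN replicate 4 Fosb was at 0.331 FPKM, Areg at 0.359 FPKM and Fosl2 at 4.70 FPKM, with 0, 0 and at most 0.332 FPKM in the other LN libraries. Ccl3 was at 6.94 FPKM in spleen replicate 4, Fosb at 0.862 FPKM and Atf3 at 0.0673 FPKM in spleen replicate 3. In spleen replicate 1 Dusp14 was at 2.16 FPKM, Gzmb at 6.25 FPKM and Atf4 at 44.5 FPKM. Slc16a3 was at 2.23 FPKM, Bhlhe40 at 1.14 FPKM and Lipe at 16.8 FPKM in LN replicate 3. Pmaip1 was at 0.0355 FPKM in LN replicate 1, and Fasl at 0.612 FPKM in LN replicate 2.

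The low ones were Egr1 at 0.888 FPKM in spleen replicate 2, Aldoa at 35.9 FPKM in LN replicate 4 and Ldha at 247 FPKM in spleen replicate 3. Among genes lower in tumor Tregs, Treml2 was low at 8.07 FPKM in spleen replicate 4 and Il6st at 11.7 FPKM in spleen replicate 1, and Tcf7 at 102 FPKM in LN replicate 3. Nsg2 was high at 33.7 FPKM in spleen replicate 2 and Bcl2 at 59.6 FPKM in LN replicate 2. Klf2 at 439 FPKM and S1pr1 at 103 FPKM stood out in LN replicate 1, Mvd at 37.9 FPKM in spleen replicate 4, and Pdcd1 at 42.2 FPKM in spleen replicate 1.

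Of the 26 genes that passed in tumor against lymphoid Tregs and also between the genotypes, those named above were, as KO minus WT tumor, S100a1 (4.75), Tmem106a (3.72), Rps21 (-0.94), Klf2 (-1.31) and mt-Tf (-2.80). Of the 20 that also passed between the organs, those named above were, as LN minus spleen, Wnt10a (3.23), Cd52 (0.60), Rps21 (-0.69), Hsp90aa1 (-1.19), Ccl5 (-2.26) and H2-DMb2 (-3.94). All are log2 differences with a limma adjusted p under 0.05.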

How the results depend on the processing

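No named gene changed direction in a called value under the 24 alternatives: over 124 genes, 2849 checks gave the same call, 115 lost it and 6 gained it. The 554 genes of tumor against lymphoid Tregs were 414 with tumor and lymphoid each fitted as a single group and 563 with a pseudocount of 0.1. Without 1 library they ran from 437 to 548, and 410 to 489 of them were among the 554. The 79 genes called in all 4 pairs were 56 to 83 under other settings and 49 to 73 without 1 library. Counts that moved by over 1.5 times were 123 for WT tumor against spleen with array weights, 31 for LN against spleen with no filter on low values, and, with the replicate block, 23 for KO against WT tumor and 34 for LN against spleen. Without 1 library the counts ran from 211 to 355 for KO tumor against LN, from 168 to 318 for KO tumor against spleen, from 246 to 368 for WT tumor against LN, from 171 to 228 for WT tumor against spleen, from 37 to 64 for KO against WT tumor, and from 24 to 49 for LN against spleen. Genes without overlap were 264 to 325. Fewer libraries went into each of these fits; no other cause was tested.

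Deviations of same-numbered libraries correlated at -0.028 to 0.03 over 18 pairs, against -0.033 to 0.03 over 55 pairs with different numbers. No pairing by replicate number was seen, which does not show that same-numbered libraries came from separate mice. With the replicate block 486 genes passed in tumor against lymphoid Tregs and 59 in all 4 pairs. FPKM were deposited without counts, so the precision of low values is limited by the estimated depth.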
